A study of Mus musculus with 2 samples.

Results

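Some miRNA genes lie in introns of genes that act in metabolism, and 5 of them are described here in C2C12 cells: Mir378a in Ppargc1b, Mir33 in Srebf2, Mir107 in Pank1, Mir103-2 in Pank2 and Mir103-1 in Pank3. They were chosen by their host genes, and are 5 of 2202 miRNA genes counted. C2C12 is a mouse myoblast line that came from injured thigh muscle of a C3H mouse and that fuses into myotubes when serum is withdrawn. Small RNA under 30 nucleotides was sequenced in 2 libraries of this 1 line, labelled as biological replicates. The labels name no treatment, time, genotype change or culture stage, so the data describe levels and how far the replicates differed, with no contrast between conditions. The labels do not say whether they came from separate cultures, so the spread between them may be technical.

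The hosts sit at different points of lipid and energy metabolism. Ppargc1b encodes a coactivator of genes for mitochondrial respiration, and Srebf2 encodes the transcription factor that turns on cholesterol synthesis and uptake. The Pank genes encode pantothenate kinases, which carry out the first step of coenzyme A synthesis. An intronic miRNA hairpin is cut from the host's primary transcript by Drosha, exported, cut again by Dicer, and 1 or both arms are loaded into Argonaute, where bases 2 to 8 (the seed) pair with target mRNAs. miR-33 is known for repressing Abca1, a cholesterol exporter. miR-103 and miR-107 are known for reducing insulin sensitivity in mouse liver and fat. miR-378a is known from mitochondrial metabolism and from C2C12 differentiation, where it targets the myogenic repressor MyoR.

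The Mir103-1, Mir103-2 and Mir107 hairpins have to be seen together before their counts are read, because their arms are nearly the same. Their RefSeq sequences (GRCm38.p6, as RNA, 5′ to 3′) are given with the annotated 5p and 3p arms in capitals, with Mir33 for comparison. Mir103-1 is at chr11:35782396-35782481 on the plus strand, Mir103-2 at chr2:131288052-131288137 on the plus strand, Mir107 at chr19:34820687-34820773 on the minus strand and Mir33 at chr15:82198122-82198190 on the plus strand.
Mir103-1: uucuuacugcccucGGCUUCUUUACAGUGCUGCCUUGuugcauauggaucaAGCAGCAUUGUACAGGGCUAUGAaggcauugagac
Mir103-2: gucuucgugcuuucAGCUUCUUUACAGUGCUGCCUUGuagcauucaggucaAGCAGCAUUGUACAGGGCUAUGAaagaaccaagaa
Mir107: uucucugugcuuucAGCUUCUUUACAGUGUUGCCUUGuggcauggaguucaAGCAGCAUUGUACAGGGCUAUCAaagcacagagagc
Mir33: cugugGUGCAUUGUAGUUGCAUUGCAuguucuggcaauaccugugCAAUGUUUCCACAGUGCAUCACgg

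The mature arms group by seed, shown in capitals.
miR-103-3p: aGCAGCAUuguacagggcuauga
miR-107-3p: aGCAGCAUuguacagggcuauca
miR-103-1-5p: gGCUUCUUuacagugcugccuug
miR-103-2-5p: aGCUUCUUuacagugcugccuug
miR-107-5p: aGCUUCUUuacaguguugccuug
miR-33-5p: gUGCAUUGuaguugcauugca
miR-33-3p: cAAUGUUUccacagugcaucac
The 3p arm of Mir103-1 and Mir103-2 is 1 and the same molecule, and miR-107-3p differs from it by G22C, counted from 1 at the 5′ end of miR-103-3p. The first 21 of 23 bases are therefore shared by all 3 genes. The 5p arms differ by G1A between miR-103-1-5p and miR-103-2-5p, and by C16U between miR-103-2-5p and miR-107-5p. Among the mature miRNAs of the RefSeq table, miR-103-3p shared its seed with miR-107-3p and no other, and neither Mir33 arm shared its seed with any.

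Shared letters set which reads can be given to a single gene. The Mir103-1 and Mir103-2 hairpins share a run of 27 bases, ucaAGCAGCAUUGUACAGGGCUAUGAa, which holds all 23 bases of miR-103-3p (capitals), 3 bases before it and 1 after it. A read within this run fits both genes. Each shares with Mir107 a run of 24 bases, ucaAGCAGCAUUGUACAGGGCUAU, which ends 1 base before the position where miR-107-3p differs. Reads that fit several places have a row of their own in the deposited tables, with 18382947 reads in replicate 1 and 5599235 in replicate 2, and that row is not split by gene. If the gene counts omit such reads, as this row implies, the counts of Mir103-1 and Mir103-2 do not hold the full-length miR-103-3p, and the Mir107 count holds only those 3p reads that reach base 22. The levels of these 3 genes are uncertain for that reason. Mir378a shares a run of 20 bases with Mir378c and of 19 with Mir378b. Mir33 shared no run of 17 or more bases with any other counted hairpin, so its count is free of this limit among the counted genes.

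All 5 hairpins are intronic on the strand of their host, Mir378a at chromosome 18, positions 61397835 to 61397900, minus strand, mm10. Each Pank hairpin lies in intron 5 of 6 of the principal coding transcript of its host, counted from the 5′ end. The Mir103-1 hairpin starts 688 bases after the upstream exon of an intron of 1740 bases in Pank3. In Pank2, Mir103-2 starts 454 bases into an intron of 5801 bases, and in Pank1, Mir107 starts 326 bases into one of 7282 bases. Pank4 holds no annotated miRNA gene. Mir33 lies in intron 16 of 18 of the transcript Srebf2-201, 335 bases into 1848. Mir378a lies in intron 1 of 12 of Ppargc1b-201, 2389 bases into 17766. In the other coding transcript that spans Mir378a, Ppargc1b-202, this intron is 76981 bases long. Among the relatives of the other hosts, Ppargc1a holds no annotated miRNA gene. Srebf1 holds Mir6921, with 2 reads in replicate 1 and 1 in replicate 2, and Mir6922, with none in either library.

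**Figure D1:**
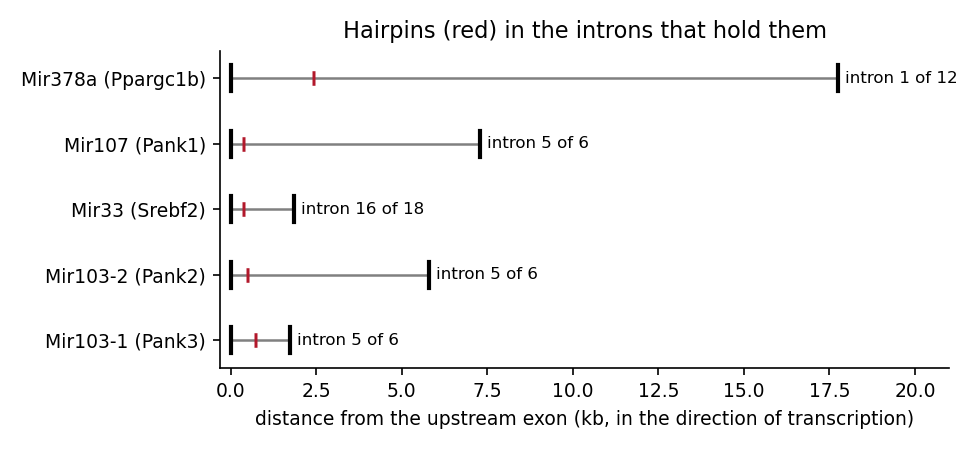
Position of each hairpin (red, to scale) in the host intron that holds it. The x axis gives the distance from the upstream exon in kb along the direction of transcription. Black bars mark the ends of the intron in the principal transcripts of Pank1, Pank2 and Pank3, in Ppargc1b-201 and in Srebf2-201. The 3 Pank hairpins start at most 688 bases after the upstream exon.

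Gene-strand reads numbered 27661907 in replicate 1 and 15025315 in replicate 2. Levels are counts per 1e+06 of these (CPM). Mir21a, the most abundant gene, took 23.1% of them in replicate 1 and 53.5% in replicate 2, and by construction a larger share of Mir21a lowers the CPM of the other genes. The 5 genes together held 381901 reads in replicate 1, or 1.381% (exact 95% interval 1.376 to 1.385), and 113998 in replicate 2, or 0.759% (0.754 to 0.763). All such intervals and limits span counting error alone, because amplified reads are not separate molecules and the labels name no molecular identifiers. Of 8 skeletal muscle markers 4 reached 1 CPM in both libraries, led by Mir206 with 2559 CPM in replicate 1 and 1028 in replicate 2, and Mir1a-1, Mir133a-1 and Mir133a-2, known to have near-identical copies, were at 0. The summed level of the blood list was 216.5 CPM in replicate 1 and 123.8 in replicate 2, nearly all of it Mir142, the liver gene Mir122 had 3.90 and 1.26 CPM, and the endothelial Mir126a 213 and 134 CPM. None of 6 neuron genes and 3 of 6 epithelial genes reached 1 CPM in both libraries, the epithelial list summing to 21.6 CPM in replicate 1 and 17.2 in replicate 2.

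In these counts the 5 genes covered more than 3 orders of magnitude and kept the same order in both libraries: Mir378a, Mir107, Mir33, Mir103-2, Mir103-1. The places of Mir107, Mir103-2 and Mir103-1 carry the limit of shared sequence given above. The order is thus not one of miR-103 and miR-107 molecules. Mir378a led with 322706 reads in replicate 1 (11666 CPM) and 97999 reads in replicate 2 (6522 CPM), a mean of 9094 ± 3637 CPM (SD, n = 2). It ranked 20th among all counted genes in each library. It made up 84.5% of the reads of the 5 genes in replicate 1 and 86.0% in replicate 2.

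Mir107 came second with 52547 reads in replicate 1 (1900 CPM) and 14459 in replicate 2 (962 CPM), a mean of 1431 ± 663 CPM (SD, n = 2). It ranked 59th in replicate 1 and 65th in replicate 2. Mir33 had 4799 reads in replicate 1 (173 CPM) and 829 in replicate 2 (55.2 CPM), a mean of 114 ± 83.7 CPM (SD, n = 2), and ranked 124th and 147th. Its level in replicate 1 was 3.14 times that in replicate 2 in CPM, the widest gap of the 5 genes on this scale, so that either library alone moves its level by more than 1.5 times from the mean.

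Mir103-2 had 1763 reads in replicate 1 (63.7 CPM) and 662 in replicate 2 (44.1 CPM), a mean of 53.9 ± 13.9 CPM (SD, n = 2). Mir103-1 had 86 reads in replicate 1 (3.11 CPM, exact 95% interval 2.49 to 3.84) and 49 in replicate 2 (3.26 CPM, 2.41 to 4.31), a mean of 3.19 ± 0.108 CPM (SD, n = 2). Its CPM intervals in the libraries overlapped, but they are wide at this depth and rest on library totals. With trimmed-mean scaling, described further on, its log2 ratio of replicate 1 over replicate 2 was -0.97. All 5 genes passed 1 CPM in both libraries, as did 320 of 2202 genes. Neighbours in the order were apart in each library. Mir33 was the higher of Mir33 and Mir103-2 in both, while their ranges over the libraries, 55.2 to 173 CPM for Mir33 and 44.1 to 63.7 CPM for Mir103-2, overlapped.

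**Figure D2:**
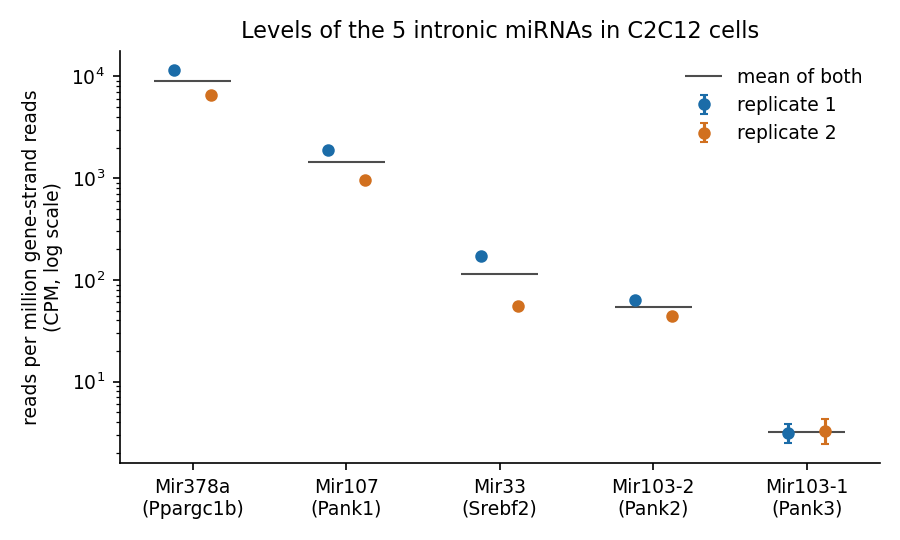
Level of each gene in replicate 1 (blue, left) and replicate 2 (orange, right), in CPM on a log axis, with exact 95% counting intervals, many smaller than the points, and the mean of both libraries as a bar. Host genes are in brackets, and Mir378a lies at 9094 CPM on average and Mir103-1 at 3.19 CPM. Reads that fit several genes may be missing from Mir107, Mir103-2 and Mir103-1.

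The 5 genes were set against the other miRNA genes in introns of protein-coding genes. The annotation holds 724 miRNA genes in such introns, and 133 of them, the 5 included, reached 1 CPM in both libraries. By mean CPM, Mir378a ranked 5th of these 133, Mir107 21st, Mir33 53rd, Mir103-2 62nd and Mir103-1 103rd. The median of the other 128 was 31.2 CPM, against 43.9 CPM over all 320 detected genes. Mir378a, Mir107, Mir33 and Mir103-2 thus lay above both medians, and Mir103-1 below both. For Mir107, Mir103-2 and Mir103-1 these are places of counts that may omit reads fitting several genes. Mir378a supplied 6.67% of the reads of these 724 genes in replicate 1 and 7.60% in replicate 2, and Mir107 supplied 1.09% and 1.12%. Above Mir378a were Mirlet7g in Wdr82 at 17189 ± 10364 CPM, Mir99b in Spaca6 at 13513 ± 5779, Mir23b at 12870 ± 4560 and Mir26b in Ctdsp1 at 10100 ± 6763 CPM (SD, n = 2).

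**Figure D3:**
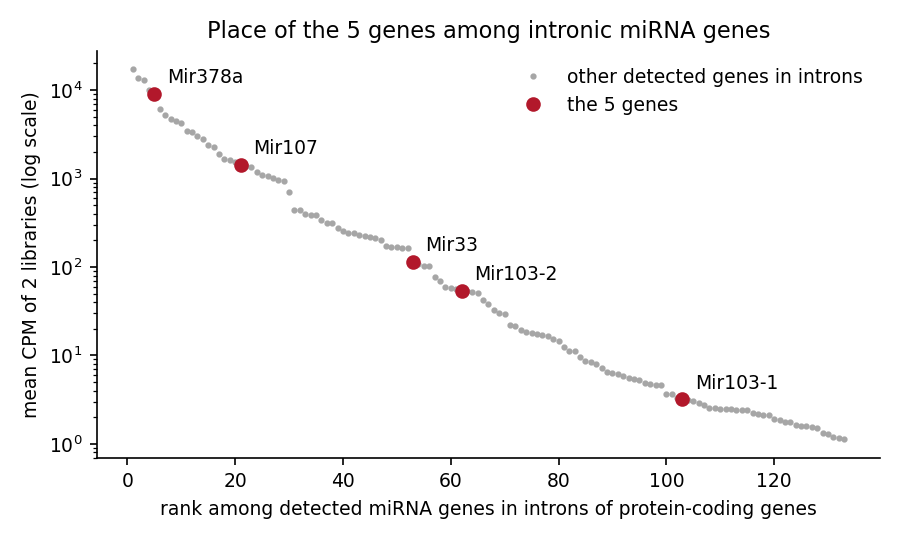
Mean CPM of the 2 libraries, on a log axis, against rank for the 133 detected miRNA genes in introns of protein-coding genes. The 5 genes are named in red and the other 128 are grey, and Mir378a stands 5th while Mir103-1 stands 103rd. Reads that fit several genes may be missing from Mir107, Mir103-2 and Mir103-1.

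Genes closest in level over both libraries were found by distance in log2(CPM + 1), which with 2 libraries reflects level more than pattern. Nearest to Mir378a were Mir130a at 0.26 and Mir20a at 0.31 log2 units. Nearest to Mir107 were Mir188, in an intron of Clcn5, at 0.15 and Mirlet7f-2, in an intron of Huwe1, at 0.15. Mir190a, in an intron of Tln2, lay 0.28 from Mir33 and Mir212 lay 0.38 from it. Mir669l and Mir330 were nearest to Mir103-2 at 0.14 and 0.15, and Mir3069 and Mir874 to Mir103-1 at 0.15 and 0.17.

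The reads on the Pank genes fell almost entirely on Mir107. Of 54396 reads on Mir103-1, Mir103-2 and Mir107 in replicate 1, Mir107 held 96.6% (exact 95% interval 96.4 to 96.8), Mir103-2 3.24% (3.09 to 3.39) and Mir103-1 0.158% (0.126 to 0.195). Of 15170 in replicate 2, Mir107 held 95.3% (94.96 to 95.64), Mir103-2 4.36% (4.04 to 4.70) and Mir103-1 0.323% (0.239 to 0.427). None of these intervals overlapped between the libraries, so the split differed by more than counting error, with less on Mir107 in replicate 2. These shares are of reads that fit 1 place, and so are not the shares of the miR-103 and miR-107 molecules. Multi-mapping reads numbered 338 for each Pank read in replicate 1 and 369 in replicate 2, and how many of them are miR-103-3p was not tested.

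The near-identical pair Mir103-1 and Mir103-2 was unequal as well. Mir103-2 had 20.5 reads for each on Mir103-1 in replicate 1 (95% counting interval 16.5 to 25.5) and 13.5 in replicate 2 (10.1 to 18.1). The sequences above show what can separate them: the 5p arms differ at position 1, the loops differ, and the 3p arm does not. The tables count per hairpin, so they do not tell which arm these reads came from.

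Mir378a stood over its family in the same way. Mir378c had 251 reads in replicate 1 and 76 in replicate 2, Mir378d had 123 and 37, and Mir378b had 46 and 7. Mir378a had 1286 reads for each read on Mir378c in replicate 1 and 1289 in replicate 2, and 2624 and 2649 for each on Mir378d. The library ratios of Mir378a, Mir378c and Mir378d were thus nearly the same, at -0.059, -0.061 and -0.059 on the log2 scale after trimmed-mean scaling. Mir378b, with its few reads, had 0.85 (adjusted p = 0.255, exact binomial test). The reads of Mir378c and Mir378d are too few to fix their ratios as closely as these values match. In replicate 2, Mir378c held 0.0775% of the reads on it and Mir378a (counting interval 0.0611 to 0.0970). For Mir378d this share was 0.0377% (0.0266 to 0.0520). The match is therefore no measure of how closely these genes vary together. None of Mir378b, Mir378c and Mir378d passed the test described further on, which 41.5% of the 556 genes tested passed. At their few reads, not passing says little about these genes. Of all reads counted on the 4 genes, Mir378a held 99.9% in each library. Reads within the runs it shares with Mir378c and Mir378b may be missing, so this is not a share of molecules.

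Strand mattered for 1 of the 5 genes. Mir378a is overlapped on the plus strand by Gm25301, an annotated miRNA gene at chromosome 18, positions 61397813 to 61397925, mm10. In the column that ignores strand both genes have 0 reads, since their reads count as ambiguous there. The reads of Mir378a are 38.3% of the ambiguous reads of that column in replicate 1 and 40.1% in replicate 2. By strand, Gm25301 had 0 reads of its own in either library, while 322706 and 97999 reads lay opposite to it, which are the Mir378a reads. The other 4 genes had the same count with and without strand. No read lay opposite to any of the 5 genes, which allows opposite reads of up to 0.00093% of the count of Mir378a in replicate 1 and 0.00306% in replicate 2. For Mir103-1 the few reads allow up to 3.49% and 6.12%.

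Ratios between genes within a library do not depend on how the libraries are scaled. They can depend on reads that fit several genes, which may be missing from Mir107, Mir103-2 and Mir103-1. Multi-mapping reads were 33.4% of all reads in replicate 1 and 22.8% in replicate 2. Their part in the ratios was not tested. Mir378a had 6.14 reads for each Mir107 read in replicate 1 (95% counting interval 6.08 to 6.20) and 6.78 in replicate 2 (6.66 to 6.90), the closest match between libraries of the 10 pairs. Mir378a had 67.2 reads for each Mir33 read in replicate 1 (65.4 to 69.2) and 118 in replicate 2 (110 to 127). Mir107 had 10.9 reads for each Mir33 read in replicate 1 (10.6 to 11.3) and 17.4 in replicate 2 (16.3 to 18.7). Mir33 thus took a larger part in replicate 1 beside each of them.

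Mir33 had 2.72 reads for each Mir103-2 read in replicate 1 (2.58 to 2.87) and 1.25 in replicate 2 (1.13 to 1.39), and 55.8 for each Mir103-1 read in replicate 1 (45.1 to 69.1) and 16.9 in replicate 2 (12.7 to 22.6). The last of these changed most of the 10 pairs, by 1.72 on the log2 scale (replicate 1 minus replicate 2, 95% counting interval 1.205 to 2.239). For all 10 pairs the interval of the difference left out 0, and the order of the 5 genes was the same in each library. These intervals hold counting error alone, and the 10 pairs are built from 5 genes and so are not independent. How many pairs of other genes would leave out 0 was not tested. The replicate spread described further on implies an SD of 0.96 for the log2 difference of a pair. In size the differences ran from 0.15 times this SD for Mir378a over Mir107 to 1.79 times for Mir33 over Mir103-1.

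**Figure D4:**
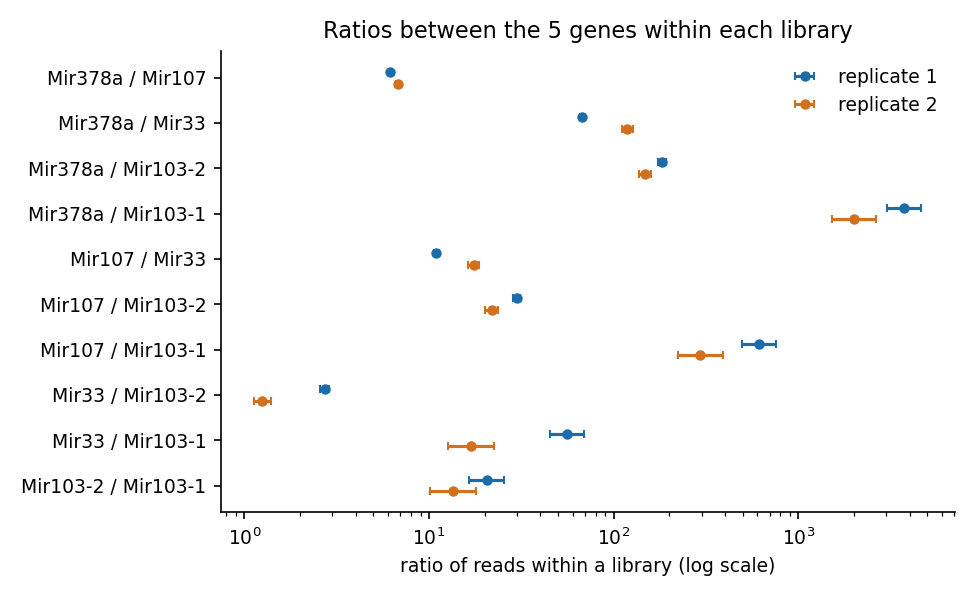
Reads of one gene per read of another within replicate 1 (blue, upper) and replicate 2 (orange, lower) for the 10 pairs, on a log axis with 95% counting intervals. Mir378a over Mir107 lies at 6.14 and 6.78, and Mir33 over Mir103-1 at 55.8 and 16.9. Reads that fit several genes may be missing from Mir107, Mir103-2 and Mir103-1.

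The libraries were then compared gene by gene, as a measure of how closely the replicates matched and not of any condition. After trimmed-mean (TMM) scaling, an exact binomial test, two-sided and with Benjamini-Hochberg adjustment, was run on the 556 genes that had 10 or more reads in all. This test holds counting noise only, and 41.5% of the 556 genes passed it at an adjusted p of 0.05, with 94 higher and 137 lower in replicate 1. By library totals 59.4% passed, with 304 higher and 26 lower, and by totals without Mir21a 138 were higher and 94 lower. Among the 272 genes with at least as many reads as Mir103-1, 73.2% passed. All 5 genes passed, which beside that share is nothing particular to them.

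Mir33 was 1.69-fold higher in replicate 1 than in replicate 2 (log2 ratio 0.75, counting SE 0.054, adjusted p = 1.76e-48, exact binomial test). It was higher there under each of the 4 scalings tried, by 0.75 to 1.65 on the log2 scale, and this ratio was 1.11 times the SD of 0.68 that edgeR's common coefficient of variation between the replicates, 34.3%, implies for the ratio of 1 gene. Of the 210 genes that averaged 10 CPM or more, whose median absolute log2 ratio was 0.33, it had the 42nd largest. Of the 8 muscle markers 4 were tested. Mir206, Mir133b and Mir486 were higher in replicate 1, by 0.42, 1.21 and 0.87 on the same scale. Mir1b, at -0.27, did not pass (adjusted p = 0.494, exact binomial test). Among all 556 genes tested, 16.9% were higher and 24.6% lower. Of the 272 with at least as many reads as Mir103-1, 73.2% passed in either direction, so passing is nothing particular to these markers. Mir21a was lower by 2.11. The part of the markers and of Mir21a in the ratio of Mir33 was not tested.

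Mir107 was 1.06-fold higher in replicate 1 (log2 ratio 0.083, counting SE 0.014, adjusted p = 2.64e-09, exact binomial test), also with each scaling. Mir378a had a TMM log2 ratio of -0.059 (counting SE 0.0053, adjusted p = 4.83e-28, exact binomial test), but the sign turned with DESeq2 size factors (0.0032), where it did not pass (adjusted p = 0.723, exact binomial test), and with library totals (0.84). Both ratios were small beside the spread between replicates, at 0.12 and 0.086 times its SD.

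Mir103-2 was lower in replicate 1 with TMM, at a log2 ratio of -0.37 (counting SE 0.066, adjusted p = 1.98e-07, exact binomial test), and higher by 0.53 with library totals. Mir103-1 was lower in replicate 1 under each scaling, with a TMM log2 ratio of -0.97 (95% counting interval -1.48 to -0.47, adjusted p = 0.000877, exact binomial test), and with library totals it did not pass, at -0.075. These genes of Pank2 and Pank3 thus lay on the other side of the TMM scale from Mir107 of Pank1, though their ratios were within 1.43 times the SD that the spread implies.

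**Figure D5:**
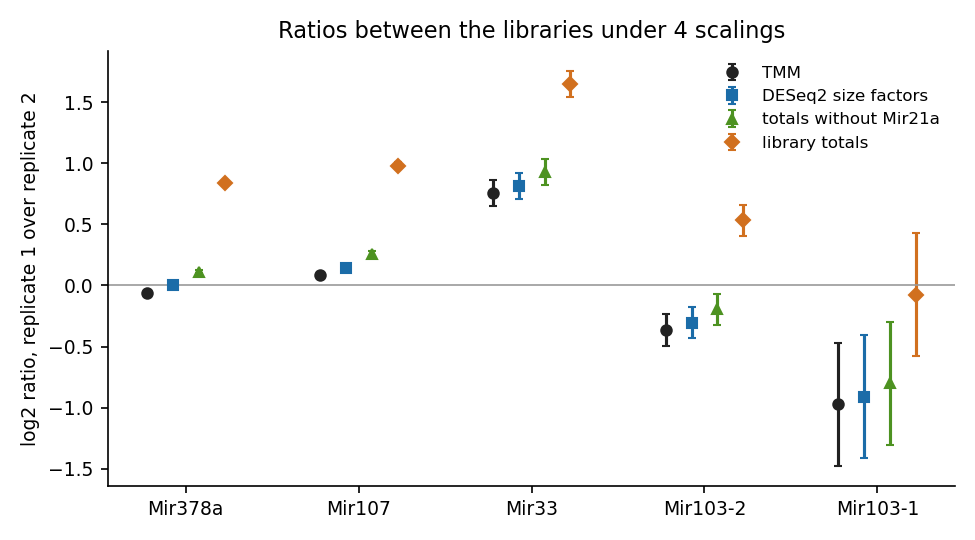
Log2 ratio of replicate 1 over replicate 2 for each gene with TMM (black circles), DESeq2 size factors (blue squares), totals without Mir21a (green triangles) and library totals (orange diamonds), with 95% counting intervals. Mir33 and Mir107 lie above 0 and Mir103-1 below 0 under each, and Mir378a and Mir103-2 change sign.

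The seed of miR-103-3p and miR-107-3p is also close to that of the miR-15 and miR-16 group, known for slowing the cell cycle. Bases 1 to 7 of miR-103-3p, AGCAGCA, are bases 2 to 8 of 10 mature miRNAs in the RefSeq table. The capitals mark the seed in examples of the group.
miR-15a-5p: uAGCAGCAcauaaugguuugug
miR-16-5p: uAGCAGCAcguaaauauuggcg
miR-322-5p: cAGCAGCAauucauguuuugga
Mir322 and Mir15a of this group had more counted reads than Mir107 in each library. Mir322 averaged 7066 ± 3016 CPM and Mir15a, in an intron of Dleu2, 3758 ± 2492 CPM (SD, n = 2). Mir6342, Mir6353 and Mir6419, named like other carriers of AGCAGCA at bases 2 to 8, had 0 reads in each library and were not put in the group. Of 8 genes of the miR-15 and miR-16 group in the tables, 7 reached 1 CPM in both libraries. Of these 7, all tested, 1 was higher in replicate 1 (Mir15a, log2 ratio 0.57) and 5 were lower, against 16.9% higher and 24.6% lower over all genes tested, with a median log2 ratio of -0.42 against -0.09. Each of the 7 had more reads than Mir103-1. Among the 272 genes with at least as many reads as Mir103-1, 73.2% passed in either direction. Beside that share, passing the test is nothing particular to this group. That share is not split by direction, so the 5 lower have no matched share at this depth. Runs of bases shared among the hairpins of this group were not measured. Reads that fit several of its genes may be missing from these counts. With library totals 5 were higher and 2 lower, against 54.7% higher and 4.68% lower over all genes tested.

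A list of 31 other miRNA genes known from lipid and glucose regulation was taken for comparison. Of these, 24 reached 1 CPM in both libraries, and the detected ones had a median of 200.4 CPM, so that Mir378a and Mir107 lay above it and Mir33 below it. The highest were Mir143, known from adipocytes and smooth muscle, at 48683 ± 17906 CPM, Mir29a, a repressor of collagens and of insulin signalling genes, at 14639 ± 6380 CPM, and Mir26b at 10100 ± 6763 CPM (SD, n = 2). Mir27a, a repressor of the adipocyte regulator Pparg, had 7851 ± 1635 CPM, Mir27b 5062 ± 677 CPM and Mir34a 2145 ± 944 CPM (SD, n = 2). Several of these share sequence with copies elsewhere, which leaves their levels uncertain. Of the 29 tested, 7 were higher and 10 lower in replicate 1, with a median log2 ratio of -0.16. Over all genes tested 16.9% were higher and 24.6% lower, with a median of -0.09. With library totals 22 of the list were higher and none lower, against 54.7% and 4.68% of all genes tested.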

How the data were processed

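The authors deposited, for each of the 2 libraries, whole-number read counts for 2202 miRNA genes, in 3 columns for either strand, the strand of the gene and the opposite strand. Per the file headers of the readme texts, the build is mm10 and the annotation GENCODE M21, which supplied symbols, positions and hosts for all 2202 genes. Which aligner and counter were used is not given in the sources used here. Counts on the gene strand were used. Rows that name no gene (49.7% of the reads in replicate 1, 38.8% in replicate 2) stayed out of totals and tests. A host is an annotated gene that spans the hairpin on its strand.

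With 1 group of 2 libraries, edgeR's quasi-likelihood test cannot be made. TMM scaling and the common coefficient of variation came from edgeR 4.0.16 under R 4.3.3, and the exact binomial test from scipy 1.17.1. Ratios are replicate 1 over replicate 2 with a prior count of 0.5. The script was tested on simulated data. The members, lists and tests were chosen with earlier results of these data known. Named genes were the 5 genes, their overlapping, family and seed-related genes, the 6 highest of the lipid and glucose list and of other intronic genes, and the 2 nearest in level, plus cell type markers. The muscle, blood, liver, endothelial, neuron and epithelial markers numbered 8, 4, 1, 1, 6 and 6. As alternatives, size factors of DESeq2 1.42.0, totals with and without Mir21a, other filters, either-strand counts and each library alone were tried.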

Additional observations from a re-analysis of the deposited data

Results flagged for a closer look

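Some reads lie outside the gene-strand counts, in rows and columns that the comparisons do not use, and their number tests nothing. The row of reads with several places holds 18382947 reads for replicate 1 and 5599235 for replicate 2. The column for the opposite strand sums to 843574 reads for replicate 1 and 244513 for replicate 2. Gm25301 holds 322706 of the opposite-strand reads in replicate 1 and 97999 in replicate 2, which are the Mir378a reads, so this column holds reads of overlapping genes. No control libraries were analysed here.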

How the results depend on the processing

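No paired analysis was possible because there is 1 group. With 1 library a level has no SD, and Mir33 stood at 55.2 CPM without replicate 1 and 173 without replicate 2, against 114 on average. Mir378a changed sign against TMM (-0.059) with DESeq2 size factors (0.0032, not passed, adjusted p = 0.723, exact binomial test), library totals (0.84) and totals without Mir21a (0.11), the last chosen after seeing the data, and Mir103-2 changed sign with library totals (0.53). Mir103-1 no longer passed with library totals (-0.075, adjusted p = 0.826, exact binomial test; 0.000877 with TMM). Library totals shift every log2 ratio by 0.90 against TMM, by construction, and gave 304 genes higher and 26 lower in replicate 1, against 94 and 137 with TMM. With totals that omit Mir21a these numbers were 138 and 94. With Mir21a left out of the totals, Mir378a stood at 14600 CPM, Mir107 at 2270, Mir33 at 172, Mir103-2 at 88.8 and Mir103-1 at 5.53, as a smaller total gives. Counted on either strand, Mir378a fell to 0 CPM and gave no ratio. Of 249 other miRNA genes tested in introns of protein-coding genes, 38 were higher and 48 lower with TMM, against 16.9% and 24.6% of all genes. With library totals 133 were higher and 8 lower, against 54.7% and 4.68%. Of the miR-15 and miR-16 group 1 was higher with TMM and 2 with DESeq2 size factors. Mir497b, left out of this group after seeing the data because it lacks the seed, was lower in replicate 1. The 3 other Mir378 genes, with few reads, had none called with TMM or DESeq2 size factors and 3 higher with library totals. Over all genes tested 41.5% were called with TMM and 54.7% were higher with library totals. Depth limits Mir103-1, with 86 and 49 reads, and shared sequence limits all 3 Pank genes.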
